A study of Saccharomyces cerevisiae with 6 samples.

Results

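A set of 10 genes of zinc transport and zinc response was followed in budding yeast exposed to zinc pyrithione: ZRT1, ZRT2 and FET4 of plasma membrane import, ZRC1, COT1 and ZRT3 of the vacuole, ZRG17 of the endoplasmic reticulum (ER), the activator gene ZAP1, and the zinc-responsive genes ADH4 and IZH1. The 10 genes were taken by name from the 5379 genes that the platform annotation names on the array, and each had 1 spot. Of these 10, 8 had a value on all 3 arrays and were tested among 4312 genes, while ZAP1 and ADH4 had values on 2 arrays. Treated cells were the Saccharomyces cerevisiae strain S288C in rich YPD medium at 25 °C, given 12.6 µM zinc pyrithione in dimethyl sulfoxide during exponential growth and collected after 2 h. Untreated cells were the same strain grown for the same 2 h with nothing added, so that compound and solvent cannot be told apart. On each of 3 arrays, from independent biological samples, polyadenylated RNA of treated cells (Cy5) met that of untreated cells (Cy3). The scanner read every array at 2 laser powers, high and low.

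Zinc pyrithione is a complex of zinc with an organic chelator, used against fungi and bacteria. Yeast takes up zinc through ZIP-family carriers of the plasma membrane, stores it in the vacuole through carriers of the cation diffusion facilitator (CDF) family, and releases it again through a vacuolar ZIP carrier. The activator Zap1 senses zinc and, when zinc is scarce, switches on the import genes, the vacuolar genes, its own gene and a set of others. COT1 stands outside this set and belongs to the regulon of the iron-sensing activators Aft1 and Aft2.

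All values are log2 ratios of treated over untreated cells, with both scans of an array averaged to 1 value. This direction is the likely one, since the deposited values do not name the dye on top. Were it the other way, "higher" and "lower" would change places throughout. No array had the dyes exchanged, so that dye and treatment cannot be told apart. The ratios are averages over a culture, in which a change in every cell and a larger change in some of the cells cannot be told apart. Scans held values for 1789 to 5737 of 6912 spots, and medians of the scans lay between 0.02 and 0.08. The median over the 4312 genes was 0.03, and the middle of the distribution, from the lower to the upper quartile, ran from -0.30 to 0.30.

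Import genes lay below 0, vacuolar genes went both ways, and genes of ER zinc transport lay near 0 on average. ZRT1 and ZRT2 fell, COT1, ZRT3 and IZH1 rose, and ZRC1, FET4 and ZRG17 did not pass the test (limma with Benjamini-Hochberg adjustment over all genes, threshold 0.05). That is 3 of 8 tested zinc genes higher, against 8.12% of all genes tested, and 2 of 8 lower, against 9.6%. In either direction 5 of 8 passed, against 17.7% of all genes. The genes were chosen with earlier results of these data known, so these shares are a description. The median of the 8 was -0.16, with 4 above 0 and 4 below.

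**Figure D1:**
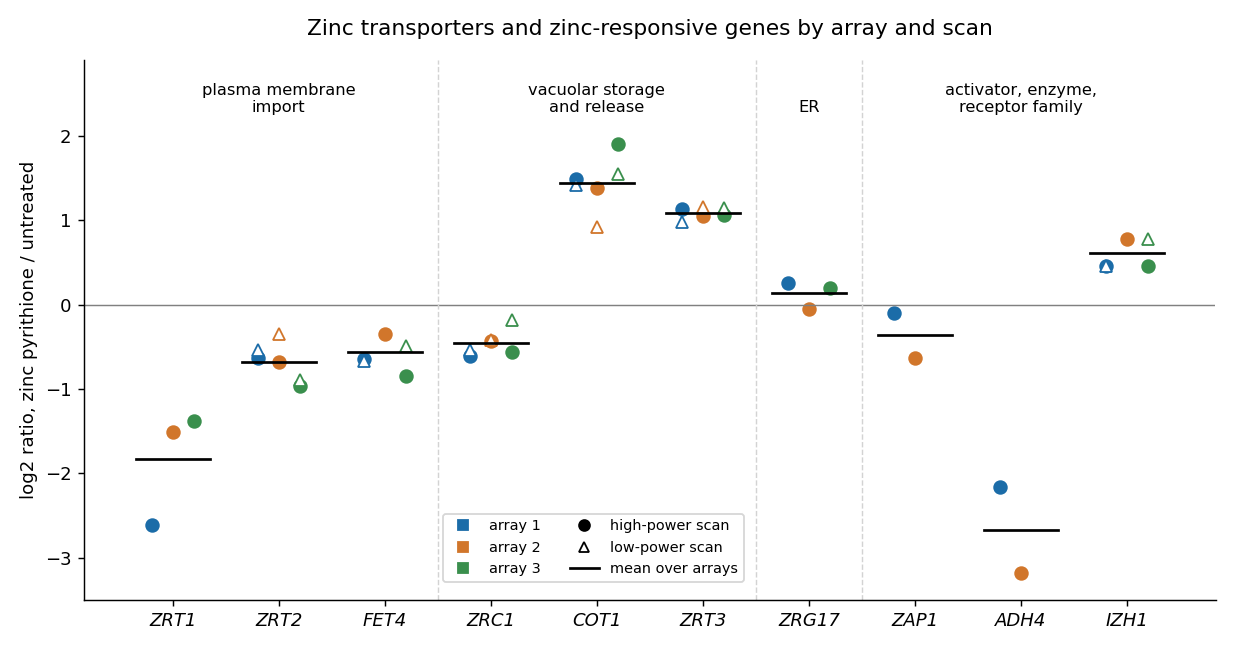
Log2 ratio of zinc pyrithione over untreated cells (y axis) for each zinc gene (x axis), with filled circles for high-power scans, open triangles for low-power scans, colours for the 3 arrays and a black line for the mean. The import genes lie below 0 in every scan with a value, COT1 and ZRT3 lie above 0 in all 6 scans, and ZRG17 lies on either side of 0.

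ZRT1 (YGL255W), which encodes the high-affinity zinc importer of the plasma membrane, had log2 ratios of -2.61 on array 1, -1.50 on array 2 and -1.38 on array 3. Array 1 was the farthest from 0, and the other arrays lay close to each other. The transcript was 3.56-fold lower in treated cells, at -1.83 ± 0.68 (SD, n = 3; limma adjusted p = 0.00379), with a 95% confidence interval from -2.43 to -1.24. Of the 4312 genes tested, 42 had a lower mean ratio. Its SD was larger than that of 94.6% of these genes, so that the direction was shared by all arrays but the size was not. The spot had values in the 3 high-power scans and in 0 low-power scans.

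ZRT2 (YLR130C) encodes the low-affinity zinc importer. Its ratios were -0.59, -0.51 and -0.93 on arrays 1, 2 and 3, all below 0 and with array 3 the lowest. The mean was -0.68 ± 0.22 (SD, n = 3; limma adjusted p = 0.0301), which is 1.60-fold lower in treated cells. All 6 scans held a value below 0, from -0.96 in the high-power scan of array 3 to -0.34 in the low-power scan of array 2. The call rested on all 3 arrays, since the adjusted p was 0.119 without array 1, 0.0819 without array 2 and 0.0863 without array 3. In the low-power scans alone it was 0.106.

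FET4 (YMR319C) encodes a low-affinity iron transporter that also carries zinc and copper. It had ratios of -0.66, -0.35 and -0.67 on arrays 1, 2 and 3, and all 5 scans with a value were below 0. At -0.56 ± 0.18 (SD, n = 3) it missed the threshold (limma adjusted p = 0.0508), with an interval from -0.93 to -0.19. It passed in the high-power scans alone (limma adjusted p = 0.0248) and with each scan centred on its median (limma adjusted p = 0.0406).

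ZRT1 lay farther below 0 than ZRT2 on every array. The difference ZRT1 minus ZRT2 was -2.03, -0.99 and -0.45 on arrays 1, 2 and 3, with a mean of -1.16 ± 0.80 (SD, n = 3). It was -0.72 without array 1, and -0.44 when values were centred within groups of neighbouring spot numbers. The exact sign-flip permutation test over 3 arrays cannot give a p below 0.25, the value it gave here (two-sided). It was run for 4 pairs of genes, and each gave 0.25, so that Benjamini-Hochberg adjustment over the 4 would leave 0.25. The sizes of these differences are a description.

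In the vacuole, the CDF transporters ZRC1 and COT1, related in sequence and both able to move zinc into the organelle, had opposite signs on every array. COT1 (YOR316C), which also carries cobalt, had ratios of 1.45, 1.16 and 1.73 on arrays 1, 2 and 3. It was 2.73-fold higher in treated cells, at 1.45 ± 0.29 (SD, n = 3; limma adjusted p = 0.00195), and 59 of the 4312 genes had a higher mean ratio. Its 6 scans ran from 0.93, in the low-power scan of array 2, to 1.91, in the high-power scan of array 3.

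ZRC1 (YMR243C), the zinc and proton antiporter gene that Zap1 activates, had ratios of -0.57, -0.42 and -0.37 on the same arrays. The arrays lay close together and all 6 scans were below 0, but the mean of -0.45 ± 0.10 (SD, n = 3) did not pass the test (limma adjusted p = 0.0782; interval from -0.81 to -0.10). It did in the high-power scans alone (limma adjusted p = 0.0279) and when only genes with both scans on all arrays were tested (limma adjusted p = 0.0494). ZRC1 minus COT1 was -2.02, -1.58 and -2.10, a mean difference of -1.90 ± 0.28 (SD, n = 3; exact sign-flip p = 0.25). A cDNA spot can bind transcripts of related sequence, and how far these spots tell the transporters apart was not tested.

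ZRT3 (YKL175W) encodes the ZIP carrier that releases zinc from the vacuole. Its ratios of 1.06, 1.11 and 1.11 on arrays 1, 2 and 3 were nearly equal, and 0.93% of the genes tested had a smaller SD. It was 2.13-fold higher in treated cells, at 1.09 ± 0.03 (SD, n = 3; limma adjusted p = 0.00365; interval from 0.74 to 1.44). Its 6 scans spanned 0.98 to 1.16. Although ZRT3 and ZRT1 are both known as Zap1-activated genes, they lay 3.67, 2.61 and 2.49 apart on arrays 1, 2 and 3, a mean of 2.92 ± 0.65 (SD, n = 3; exact sign-flip p = 0.25). ZRT3 minus ZRC1, release against storage in the same organelle, was 1.63, 1.53 and 1.48, with a mean of 1.55 ± 0.07 (SD, n = 3; exact sign-flip p = 0.25). When values were centred within groups of neighbouring spot numbers, ZRT3 stood at 0.83 and ZRT1 at -1.38, both still past the threshold (limma adjusted p = 0.00844 and 0.0105).

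ZRG17 (YNR039C) encodes a CDF protein that works with MSC2 to bring zinc into the ER, and it is also a Zap1 target. Its ratios were 0.26, -0.05 and 0.20 on arrays 1, 2 and 3, with values in the high-power scans only. The mean was 0.14 ± 0.17 (SD, n = 3; limma adjusted p = 0.581), and the interval from -0.23 to 0.50 reached 1.42-fold in the higher and 1.18-fold in the lower direction. MSC2 itself (YDR205W) stood at -0.67, -0.10 and 0.65, a mean of -0.04 ± 0.66 (SD, n = 3; limma adjusted p = 0.924), so that its arrays disagreed in sign. YKE4 (YIL023C), a ZIP-family gene of the ER, stood at -0.26, 0.00 and 0.01, a mean of -0.08 ± 0.15 (SD, n = 3; limma adjusted p = 0.736). Of the 3 ER genes, 0 passed limma's test, against 17.7% of all genes tested, and 0 had an unadjusted p under 0.05. With a share of that size, 0 of 3 does not set these genes apart, nor does it show that they were unchanged.

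Set side by side by compartment, the order of the means was the same on all arrays: vacuole highest, ER between, import lowest. Single genes did not all keep this order. On array 2 the vacuolar ZRC1 (-0.42) lay below the import gene FET4 (-0.35). On array 1 the ER gene MSC2 (-0.67) lay below the import genes ZRT2 (-0.59) and FET4 (-0.66). The mean of the 3 import genes was -1.29, -0.79 and -0.99 on arrays 1, 2 and 3. The mean of the 3 vacuolar genes was 0.65, 0.62 and 0.82, although ZRC1 pulled against the other 2 genes. The mean of the 3 ER genes was -0.22, -0.05 and 0.29. Import minus vacuole was -1.72 ± 0.28, import minus ER -1.03 ± 0.27 and vacuole minus ER 0.69 ± 0.17 (SD, n = 3 each). These are descriptions with no test, since the genes were chosen as a set.

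**Figure D2:**
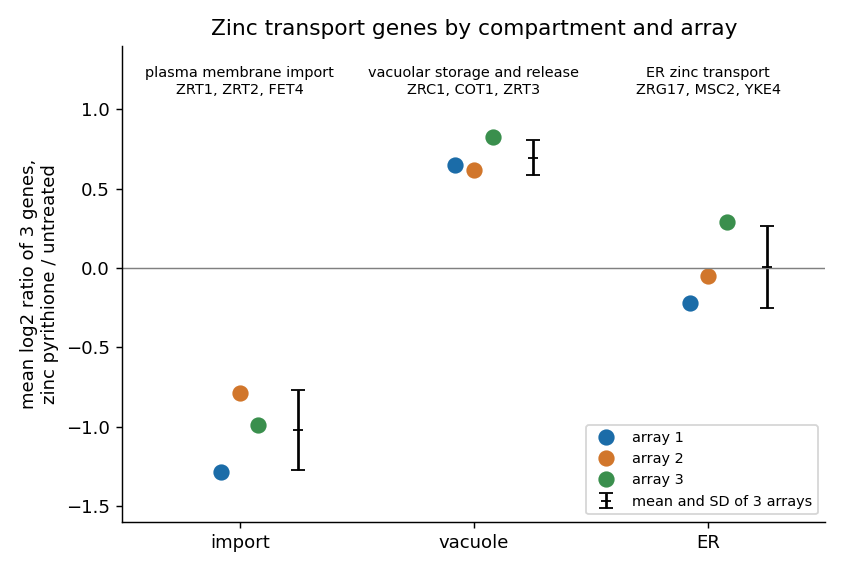
Mean log2 ratio of the 3 genes of each compartment (y axis) for import, vacuole and ER (x axis), one point per array, with the mean and SD of the 3 arrays beside them. The means of import lie between -1.29 and -0.79, those of the vacuole between 0.62 and 0.82, and those of the ER from -0.22 to 0.29. Single genes of different compartments overlap.

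ADH4 (YGL256W), which encodes an alcohol dehydrogenase made when zinc is scarce and unrelated in sequence to the main ADH1 enzyme, had the lowest ratio of the 10 genes. It stood at -2.16 on array 1 and -3.18 on array 2, both in high-power scans, and had no value on array 3. The mean of -2.67 ± 0.72 (SD, n = 2) is 6.37-fold lower in treated cells. In the fit of the 5048 genes with at least 2 arrays it passed the test (limma adjusted p = 0.00232), where 8.24% of the genes were called lower. Of the 4312 genes with 3 arrays, 10 had a lower mean ratio.

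ZAP1 (YJL056C) encodes the zinc-sensing activator, which also acts on its own promoter. Its ratios were -0.10 and -0.63 on arrays 1 and 2, again from high-power scans alone, with a mean of -0.36 ± 0.38 (SD, n = 2). In the fit with at least 2 arrays it did not pass (limma adjusted p = 0.323; interval from -0.92 to 0.19). The arrays differ by more than the mean itself, so that its transcript level was not resolved here.

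IZH1 (YDR492W) belongs to a family of membrane proteins related to animal adiponectin receptors and named for their part in zinc homeostasis. Its ratios were 0.46, 0.78 and 0.62 on arrays 1, 2 and 3, and all 5 scans with a value were above 0. It was 1.54-fold higher in treated cells, at 0.62 ± 0.16 (SD, n = 3; limma adjusted p = 0.0350). The call ended without array 1, 2 or 3 (limma adjusted p = 0.112, 0.160 and 0.0753) and with values centred within groups of spot numbers (limma adjusted p = 0.0729). Of its relatives, IZH2 stood at -0.14 ± 0.23 and IZH4 at 0.04 ± 0.40 (SD, n = 3 each; limma adjusted p = 0.593 and 0.900), and IZH3 was not analysed here.

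**Figure D3:**
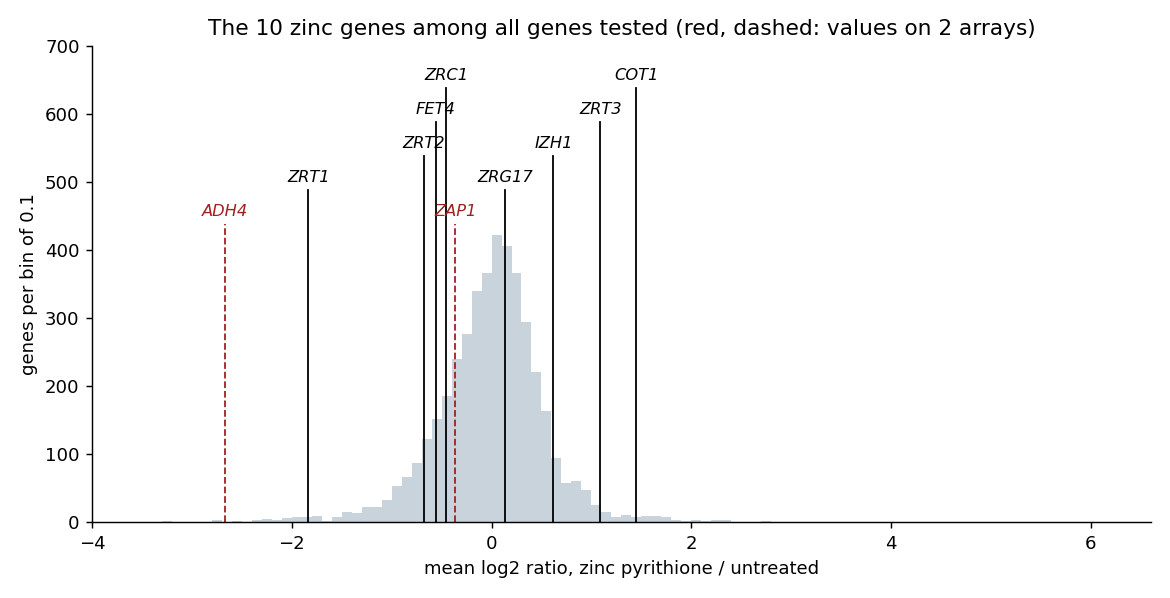
Number of genes per bin of 0.1 (y axis) against the mean log2 ratio of zinc pyrithione over untreated cells (x axis) for the 4312 genes tested, with a vertical line at each zinc gene; red dashed lines mark the genes with values on 2 arrays. ADH4 and ZRT1 lie in the lower tail, ZRT3 and COT1 in the upper tail, and ZRG17 in the middle.

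Among the 10 genes, agreement between the scans of an array could be read in 6. Where both scans held a value, they differed by 0.00 (IZH1, array 1) to 0.46 (COT1, array 2) on the log2 scale, against a median of 0.21 over all genes. ZRT2, ZRT3, ZRC1 and COT1 had both scans on all arrays. Their high minus low differences averaged -0.16, -0.01, -0.16 and 0.30, and none passed limma's test (adjusted p from 0.838 to 0.986). Of the 1372 genes so tested, 0 passed and 46 had an unadjusted p under 0.05. ZRT1, ZRG17, ZAP1 and ADH4 had no low-power value, so their ratios rest on 1 scan per array.

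Of 28 listed Zap1 targets, 24 were tested, of which 2 were higher (ZRT3 and IZH1), close to the 8.12% over all genes, and 5 lower, against 9.6% of all genes. The median was -0.15, against 0.03 over all genes. Besides ZRT1 and ZRT2, the lower genes were KTR6, TSA1 and PIS1. KTR6, a mannosylphosphate transferase gene of the Golgi, stood at -2.56, -3.26 and -2.25, and TSA1, the cytosolic peroxiredoxin gene, at -1.79, -2.60 and -1.95 on arrays 1, 2 and 3. KTR6 was 6.45-fold and TSA1 4.32-fold lower in treated cells (-2.69 ± 0.51 and -2.11 ± 0.43; SD, n = 3 each; limma adjusted p = 0.000348 and 0.000649). PIS1, the phosphatidylinositol synthase gene, fell to -0.76 ± 0.30 (SD, n = 3; limma adjusted p = 0.0258), and lost its call without array 1, 2 or 3 (limma adjusted p = 0.0680, 0.0951 and 0.0767).

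Without the 9 zinc genes that are also on the Zap1 list, 17 further targets were tested with limma, with 0 higher and 3 lower (8.12% and 9.6% over all genes) and a median of -0.14. At an unadjusted p under 0.05 the counts were 3 higher and 3 lower. How many of all genes reach that unadjusted p was not counted, so the shares above cannot be set beside these counts. Some known for strong induction in zinc-starved cells were not past the threshold. ZPS1, which encodes a cell surface protein, stood at 0.59, 0.59 and 0.38 (limma adjusted p = 0.0552). DPP1, a vacuolar lipid phosphatase gene, stood at -0.04, -0.38 and -0.06 (limma adjusted p = 0.517). VEL1 had values of 0.06 and 0.68 on arrays 1 and 2 and was not in the main test. In the fit with at least 2 arrays it did not pass (limma adjusted p = 0.332). Without array 1 or array 3, 1 gene of the whole Zap1 list was called higher, and without any 1 array 3 genes were called lower. Calls over all genes fell as well. Higher genes went from 350 to 132 without array 1 and to 297 without array 3. Lower genes went from 414 to between 176 and 337 with 1 array left out.

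**Figure D4:**
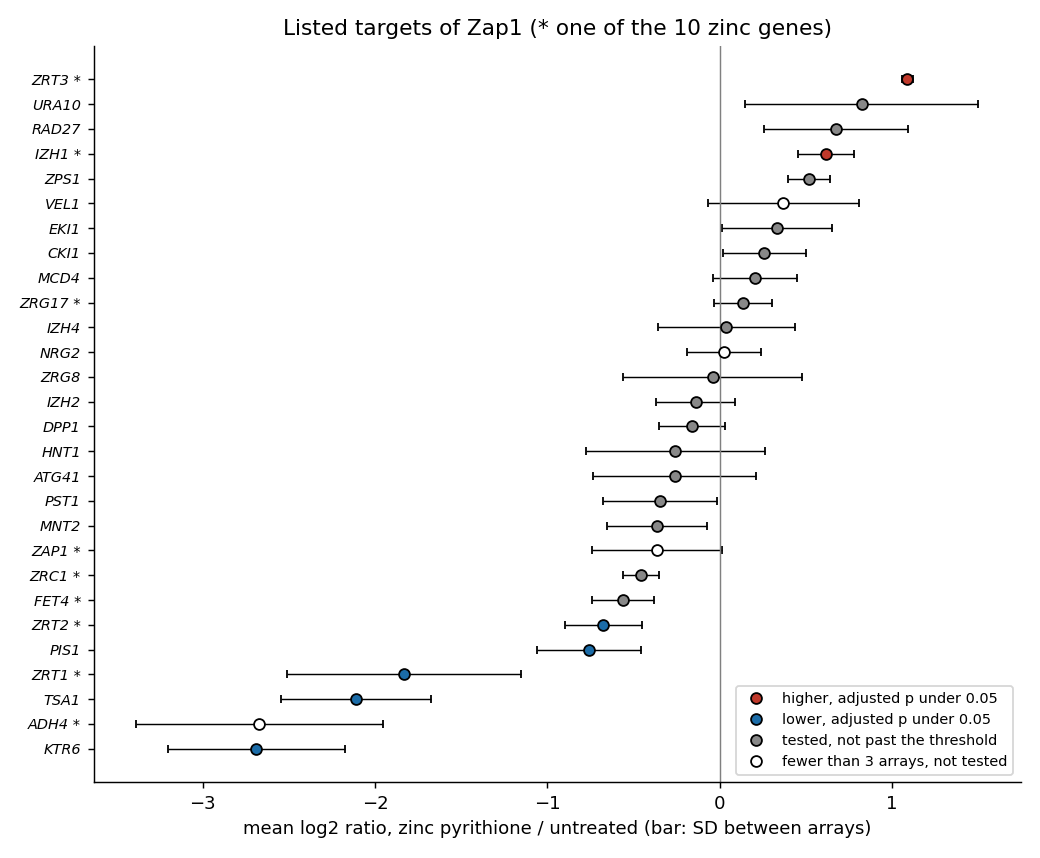
Mean log2 ratio of zinc pyrithione over untreated cells (x axis) with the SD between arrays as bars for the 28 listed Zap1 targets (y axis); red points passed the test as higher, blue as lower, grey did not pass, white had fewer than 3 arrays. KTR6, ADH4, TSA1 and ZRT1 lie farthest to the left, and ZRT3 farthest to the right with the shortest bar.

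ADH4 and ZRT1 are next to each other in the order of protein-coding genes on chromosome VII of the RefSeq annotation. Their neighbours on the side of ADH4 are MNT2 and VEL1, both on the Zap1 list, and on the side of ZRT1 FZF1, HXK2 and RTG2. MNT2, a mannosyltransferase gene, stood at -0.13, -0.69 and -0.27, a mean of -0.36 ± 0.29 (SD, n = 3; limma adjusted p = 0.184). FZF1, a sulfite-response activator gene, stood at 0.45, -0.22 and 0.16, a mean of 0.13 ± 0.33 (SD, n = 3; limma adjusted p = 0.642), and HXK2, a hexokinase gene, at 0.21 ± 0.40 (SD, n = 3; limma adjusted p = 0.478). RTG2, a gene of mitochondrial signalling at the far end, was lower at -0.89 ± 0.39 (SD, n = 3; limma adjusted p = 0.0198). The adjoining genes ADH4 and ZRT1 stood at -1.38 or below on every array with a value, while the genes directly on either side of the pair did not pass the test.

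**Figure D5:**
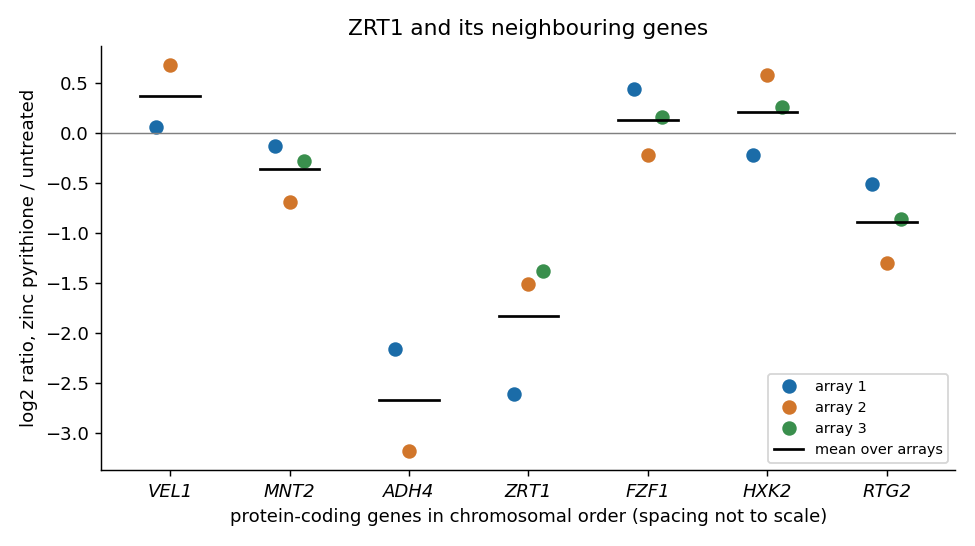
Log2 ratio of zinc pyrithione over untreated cells (y axis) for ZRT1 and the 3 protein-coding genes on each side of it in chromosomal order (x axis, spacing not to scale), with a point per array and a line at the mean. ADH4 and ZRT1 lie at -1.38 or below, and MNT2 and FZF1 beside them lie between -0.69 and 0.45.

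Across the ZIP and CDF families, 4 of 10 tested genes were higher and 2 lower, against 8.12% and 9.6% of all genes (medians of 0.05 for the families and 0.03 for all genes). Of the 11 genes listed, 6 are zinc genes described above, and the 2 lower genes were ZRT1 and ZRT2. Besides COT1 and ZRT3, the higher genes were ATX2 and MMT2, which are known for metals other than zinc. ATX2, a Golgi gene of manganese homeostasis, stood at 1.55, 1.26 and 0.98 on arrays 1, 2 and 3 (1.26 ± 0.29, SD, n = 3; limma adjusted p = 0.00363). MMT2, a mitochondrial metal transporter gene linked to iron, stood at 0.66, 0.95 and 0.90 (0.83 ± 0.15, SD, n = 3; limma adjusted p = 0.0123). The call of MMT2 ended without array 1 or array 2 (limma adjusted p = 0.0527 and 0.0735). Its paralog MMT1 had a single value of 0.08, on array 1.

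Of 4 genes of other routes by which zinc can enter, FET4 included, 1 was lower, against 9.6% of all genes. This was SMF1, a plasma membrane manganese transporter gene, at -1.40, -1.43 and -0.97 (-1.27 ± 0.26, SD, n = 3; limma adjusted p = 0.00319). PHO84, the phosphate transporter gene, had ratios of -1.43, 0.33 and 0.19, so that array 1 stood apart from the others (limma adjusted p = 0.554). SMF2, whose product acts on internal vesicles, was near 0 at 0.12 ± 0.05 (SD, n = 3; limma adjusted p = 0.611).

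The other alcohol dehydrogenase genes stood between -0.38 (ADH6) and 1.00 (ADH5), all above ADH4. Of 7 tested with limma, 3 were higher and 0 lower, against 8.12% and 9.6% of all genes, and the median was 0.61. At an unadjusted p under 0.05, 4 were higher and 1 lower, but the share of all genes at that unadjusted p was not counted. The shares of 8.12% and 9.6% do not apply to these counts. ADH5, a minor isozyme gene, rose to 1.00 ± 0.20, ADH7, of an NADPH-dependent enzyme, to 0.87 ± 0.28, and SFA1, of the formaldehyde dehydrogenase, to 0.75 ± 0.15 (SD, n = 3 each; limma adjusted p = 0.00688, 0.0147 and 0.0177). Each of these calls ended without array 1 (limma adjusted p = 0.0590, 0.107 and 0.0680). Those of ADH7 and SFA1 also ended without array 2 (0.0549 and 0.0918), and that of SFA1 without array 3 (0.0515). ADH1, the main fermentative enzyme and a major zinc protein, had ratios of 0.41, 0.17 and 0.43 (limma adjusted p = 0.171), and ADH3, its mitochondrial form, 0.28, 0.27 and -0.03 (limma adjusted p = 0.474). The difference between ADH4 and these genes was not tested.

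Of 18 tested genes of enzymes that hold zinc, 4 were higher and 3 lower, against 8.12% and 9.6% of all genes, with a median of 0.26 against 0.03 over all genes. APE1, a vacuolar aminopeptidase gene, rose to 1.22 ± 0.05, with ratios of 1.19, 1.20 and 1.28, and SOD1, a superoxide dismutase gene whose enzyme holds copper and zinc, to 0.80 ± 0.40 (SD, n = 3 each; limma adjusted p = 0.00228 and 0.0289). The lower genes were NCE103, the carbonic anhydrase gene, at -1.27 ± 0.30, PMI40, the phosphomannose isomerase gene, at -1.19 ± 0.22, and PHO8, the vacuolar alkaline phosphatase gene, at -0.80 ± 0.10 (SD, n = 3 each; limma adjusted p = 0.00371, 0.00371 and 0.0132). The calls of SOD1 and PHO8 ended without array 1 (limma adjusted p = 0.173 and 0.0947) and without array 2 (0.111 and 0.0644). The 4 higher genes included ADH5 and SFA1, described above. The count of higher zinc enzyme genes was 1 without array 1 and 2 without array 2. Over all 4312 genes tested, the count of higher genes also fell, from 350 to 132 without array 1 and to 135 without array 2. FBA1, the aldolase gene, stood at -0.09 ± 0.15 (SD, n = 3; limma adjusted p = 0.709).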

How the data were processed

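Messenger RNA of treated and untreated yeast was compared on 3 arrays, each scanned 2 times. The deposited values are log2 ratios of both dyes, 1 per spot and scan, after LOWESS normalization by the authors on spots without a quality flag, per the labels. The log base was read from the values, the lowest of which (-6.64) is log2 of 0.01. Versions of the authors' tools are not given in the sources used here. Normalization by LOWESS hides a shift shared by most transcripts. Spot intensities were not analysed here, so signal over background is unknown, and the number of arrays limits the precision.

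Of 6912 spots, 5446 had 1 gene in the platform annotation, 0 several and 1466 none; symbols were updated through RefSeq (R64), used for names and gene order alone. ICY2 and LAP4 were matched as ATG41 and APE1. Scans of an array were averaged, and the mean of 3 arrays was tested against 0 with limma 3.58.1 (lmFit, eBayes; R 4.3.3), adjusted over 4312 genes; the fit was tested on simulated data. Each array pairs a treated with an untreated culture. Genes named were the 10 zinc genes and, of each wider list, up to 6 past the threshold, those farthest from 0; the other genes printed were chosen after their values were seen, or by position. The genes and lists were chosen with earlier results of these data known. Alternatives are given in the closing section. A motif search and protein comparisons that were planned were not run. There were 0 unused sample columns. Figures were drawn with matplotlib 3.10.9.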

Additional observations from a re-analysis of the deposited data

How the results depend on the processing

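Under the settings run, no direction reversed among the 10 zinc genes, the called genes named from the wider lists, and the differences between genes and compartments. Many of these settings could not reverse one. Settings that change only the test or the set of genes tested keep the same ratios. Leaving out an array cannot reverse a mean whose arrays all share a sign. For ZRT1, ZRG17, ZAP1 and ADH4 the high-power scans alone are the same values. The other genes printed were not followed through the settings. Some of them, such as MSC2, PHO84, IZH4 and FZF1, had arrays that disagreed in sign. Others, such as RTG2, which was called lower, had the same sign on every array. ZRT1 and COT1 were past the threshold under every setting that measured them, and ZRG17 under none. ZRT1, FET4, IZH1 and ZRG17 were not tested in the low-power scans alone or among genes with both scans on all arrays. Over the tested zinc genes and all settings, a gene stayed on its side of the threshold 73 times, lost its call 11 times and gained one 4 times. The called genes named from the wider lists kept their call 125 times and lost it 31 times. They were picked as called, so they could not gain one. In the low-power scans alone ZRT2 stood at -0.59 and was not called, the count of all genes was 74 higher and 77 lower in 1429 tested, and the zinc genes had 0 lower. The Zap1 targets then had 1 higher and 1 lower, the ZIP and CDF families 2 and 0, the IZH family 0 higher, alcohol dehydrogenases 1 higher, and zinc enzymes 2 higher and 1 lower. In the high-power scans alone ZRC1 (-0.53) and FET4 (-0.61) were called, with 515 genes higher and 570 lower of 4252 tested, 4 zinc genes lower, 5 Zap1 targets higher and 7 lower, and 2 genes of other routes lower. Among the 1372 genes with both scans on all arrays, 175 were higher and 182 lower, ZRC1 (-0.45) was called, and there were 1 Zap1 target, 2 family genes and 0 IZH genes higher; here fewer genes were tested. With each scan centred on its median, which moved the median of all genes by 0.04, FET4 (-0.60) was called, giving 2 genes of other routes lower, and 303 genes were higher and 486 lower. Genes with at least 2 arrays brought in ADH4, the 1 alcohol dehydrogenase called lower. Against a 1.5-fold change (limma's treat), which asks for more than a difference from 0, ZRT2 (-0.68), ZRT3 (1.09) and IZH1 (0.62) were not called. The counts were then 65 higher and 77 lower over all genes, 1 and 1 for zinc genes, 0 and 3 for Zap1 targets, 1 and 1 for the families, 0 for the IZH family, alcohol dehydrogenases and other routes, and 0 and 0 for zinc enzymes. Centring within groups of spot numbers, chosen after seeing the data, put IZH1 at 0.49 with no call, so that 1 Zap1 target and 0 IZH genes were higher. It moved ZRT1 minus ZRT2 to -0.44, vacuole minus ER to 0.52, ZRT3 minus ZRC1 to 1.28 and ZRT3 minus ZRT1 to 2.21. The causes were not tested.

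With 1 array left out, ZRT1 minus ZRT2 ranged from -1.51 to -0.72, ZRT2 ranged from -0.76 to -0.55 and IZH1 from 0.54 to 0.70. Counts ranged from 132 to 297 higher and 176 to 337 lower over all genes, with 2 zinc genes higher and 1 lower each time. Zap1 targets had 1 to 2 higher and 3 lower, the families 3 to 4 higher and 1 lower, the IZH family 0 higher, alcohol dehydrogenases 0 to 2 higher, and zinc enzymes 1 to 4 higher and 2 to 3 lower. Without array 1 the counts over all genes were 132 and 176, and without array 2 they were 135 and 179. ZAP1 then ranged from -0.63 to -0.10 and ADH4 from -3.18 to -2.16. Each ratio already pairs the cultures of an array, so the test of the mean ratio against 0 is a paired analysis. With 1 group of arrays, no paired comparison between groups was possible.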
